A study of Mus musculus with 12 samples.

Results

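RNA levels of Tregs that carried the tethered IL-2 variant 3A10 (3A10t) and were grown without IL-2 were compared with those of Tregs that carried the empty vector (EV) and were grown in soluble IL-2 (EV+IL-2). The comparison used 6 of the 12 libraries of the series, 3 per group, and the 15043 of 55228 genes whose mean TPM (transcript abundance scaled for length and library total) over the 12 libraries was at least 1. It asked how signaling from an IL-2 joined to its own receptor differed from that of IL-2 in the medium. Most of the listed genes of mitosis, DNA replication and the interferon response were lower with the tether than with soluble IL-2. So were 14 of 30 targets and feedback inhibitors of IL-2 signaling (46.7% against 13.0% of all genes). For mitosis, median log2 levels were 2.88 to 3.01 in 3A10t, 2.27 to 2.53 in EV Tregs without IL-2 and 4.94 to 5.19 in EV+IL-2. In the same order they were 4.24 to 4.33, 4.03 to 4.14 and 5.21 to 5.35 for DNA replication. For the interferon response they were 4.85 to 5.05, 5.02 to 5.22 and 5.93 to 6.15. By these medians 3A10t lay nearer to EV Tregs without IL-2 than to EV+IL-2. Genes that were higher in 3A10t included several homing receptors, the inhibitory receptors Lag3, Pdcd1 and Tigit and the IL-7 receptor Il7r. Of 30 genes of T cell receptor signaling and its early response, 8 were higher, among them Egr2 and Nr4a1, and 5 lower. These shares were 26.7% and 16.7%, against 10.3% and 13.0% of all genes.

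All cells came from lymph nodes of NOD mice with a GFP reporter for Foxp3 (NOD.Foxp3-GFP) by the labels, while the study's methods also name spleens. CD4+ cells of 16 mice were pooled and divided in 3, and Foxp3-GFP+CD25+ cells of each part were sorted on a different machine. Each part was activated on its own, and its cells were then given the different constructs. The 3 libraries of a group are therefore separate cultures from one pool of mice. The p-values measure the spread between such cultures, pooled over all 4 groups of the series, not between animals. Both groups were activated, transduced with a retroviral vector carrying the surface reporter Thy1.1 on day 2, and sorted for Thy1.1+ cells on day 9. Cells with 3A10t were washed free of IL-2 on day 4 and spent the 5 further days without it, whereas EV+IL-2 cells stayed in medium with 100 IU/ml mouse IL-2. The construct and the IL-2 supply thus changed together, and the 2 cannot be told apart within this comparison. The other groups of the series, EV Tregs without IL-2 (EV no IL-2) and Tregs with another tethered variant (1G12t), shared the fit and are cited as reference levels.

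IL-2 binds a receptor made of IL-2Rα (CD25, encoded by Il2ra), IL-2Rβ (Il2rb) and the common γ chain (Il2rg). The kinases JAK1 and JAK3 on the β and γ chains then phosphorylate STAT5, which enters the nucleus and switches on survival, growth and feedback genes, among them Cish and the Socs family of signaling inhibitors. Tregs make little IL-2 themselves and depend on this signal to keep Foxp3 and CD25 high. In the tethered construct an orthogonal IL-2, mutated to prefer a matching mutant receptor, is fused to that receptor chain. Against the wild-type sequence listed with the constructs, 3A10 has 6 substitutions in 149 residues, E29D, Q30N, M33V, D34L, Q36K and E37A. The orthogonal IL-2Rβ has 2 substitutions in 513 residues, H134D and Y135F. Positions are counted from 1 at the first residue of each listed sequence.

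TPM are scaled to one total per library, so the depth of the libraries is unknown. Values below are TPM divided by a median-of-ratios factor per library (0.846 to 1.08 over the 12), given in the order of replicates 1, 2 and 3. Fold changes are 3A10t minus EV+IL-2 in log2(scaled TPM + 1), which understates changes of genes with few TPM, and were tested with limma over all genes that passed the filter. SE is the standard error, which draws on the spread within all 4 groups and not only the groups compared. A gene was called higher or lower at a Benjamini-Hochberg adjusted p under 0.05. Replicates of 3A10t differed more than those of EV+IL-2, with a median within-group SD of 0.22 against 0.11 on the log2 scale. Replicate 1 of 3A10t and replicate 3 of 1G12t stood furthest from their groups. Of the T cell and Treg markers, Cd3e was at 356, 388 and 350.1 TPM in 3A10t and 389.9, 389 and 378 TPM in EV+IL-2. Cd4 was at 317, 179 and 232 TPM in 3A10t and 263, 252 and 235 TPM in EV+IL-2. Foxp3 and Il2ra, both present in every library, are described with their lists. In bulk RNA, fewer cells of a type and less RNA per cell cannot be told apart.

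Markers of B, NK and CD8 T cells were low in both groups. The B cell markers summed to 21.1 to 27.4 TPM in 3A10t and 14.6 to 17.6 TPM in EV+IL-2, and 1 of the 3 tested, Cd74, was called higher (0.95, adjusted p = 0.041). The call of Cd74 held in 8 of 19 alternative settings (adjusted p up to 0.14) and was lost without 3A10t replicates 1, 2 or 3 or EV+IL-2 replicates 1 or 3, as well as with the replicate block. NK cell markers summed to at most 1.41 TPM and CD8 markers to at most 6.57 TPM in any of the 6 libraries. Myeloid markers summed to 545 to 772 TPM in 3A10t and 511 to 560 TPM in EV+IL-2, nearly all of it Cst3, an inhibitor of cysteine proteases that many cell types make. The globin and erythroid genes, described further below, summed to 78.7 to 94.9 TPM in 3A10t and 169 to 202 TPM in EV+IL-2, most of it Gata1. The part of other blood cells in the results below was not tested.

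Of the 15043 genes tested, 1552 (10.3%) were higher and 1961 (13.0%) lower in 3A10t, 3513 (23.4%) in all. Of these, 415 were higher and 450 lower by more than 1 on the log2 scale. At the threshold the study used, p under 0.01 before adjustment with a log2 change larger than 0.25 in size, 1450 (9.64%) were higher and 1874 (12.5%) lower. All 3 libraries of one group lay above all 3 of the other for 5551 genes (36.9%), including 3408 of those called. With 3 against 3 libraries the smallest exact permutation p for one gene is 0.1, so calls rest on the fit over all genes. The number called moved with single libraries: 793 higher without EV+IL-2 replicate 1, 1033 higher without EV+IL-2 replicate 2, 1111 lower without EV+IL-2 replicate 1 and 3010 lower without 3A10t replicate 1.

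**Figure D1:**
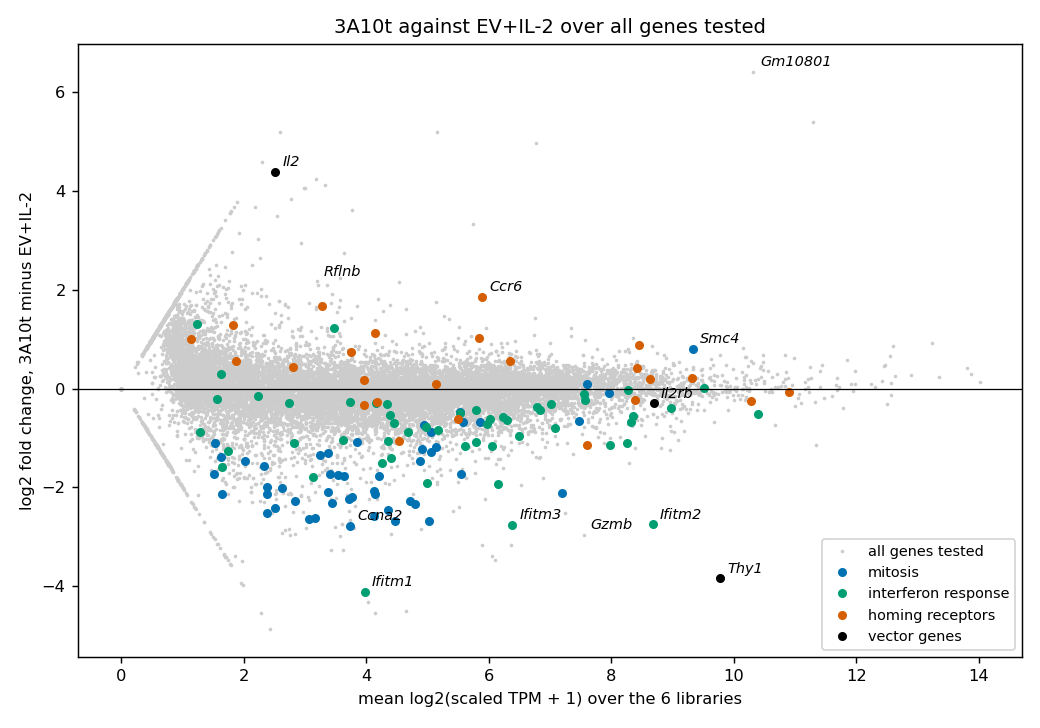
Each gray point is 1 of the 15043 genes tested, with its mean log2(scaled TPM + 1) over the 6 libraries on the horizontal axis and its log2 fold change (3A10t minus EV+IL-2) on the vertical axis. Colored points mark 4 gene lists: mitosis genes (blue) and interferon-response genes (green) lie mostly below 0, homing receptors (vermillion) mostly above it, and of the vector genes (black) Il2 lies at 4.38 and Thy1 at −3.84.

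The transcripts that the vectors carry marked the constructs. Il2 was at 30.04, 28.5 and 18.5 TPM in 3A10t and 0.183, 0.320 and 0.258 TPM in EV+IL-2 (log2 fold change 4.38, SE 0.23, adjusted p = 2.7e-06). Thy1, whose reads combine the reporter with the endogenous gene, was at 225, 262 and 208 TPM in 3A10t and 3298, 3511 and 3141 TPM in EV+IL-2 (log2 fold change −3.84, SE 0.13, adjusted p = 2.7e-07). In the tethered vector the reporter lies downstream of the construct. Il2rb, which in 3A10t combines endogenous and orthogonal chains, was at 415, 351 and 358 TPM in 3A10t and 464, 476 and 433 TPM in EV+IL-2 (log2 fold change −0.29, SE 0.09, adjusted p = 0.046). That difference is small, and the call of Il2rb held in 8 of 19 alternative settings (adjusted p up to 0.24) and was lost without 3A10t replicates 2 or 3, EV+IL-2 replicates 1, 2 or 3 or 1G12t replicate 3.

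Among the 16 receptor and JAK-STAT5 genes, 3 were higher and 4 lower, with a median log2 fold change of −0.02 (0.00 over all genes). Il2ra, the high-affinity α chain, was at 410.3, 364 and 379 TPM in 3A10t and 721, 739 and 660.0 TPM in EV+IL-2 (log2 fold change −0.88, SE 0.11, adjusted p = 0.00048). Its RNA was thus 1.84 times as high with soluble IL-2, and the groups did not overlap. EV no IL-2 libraries held 404 to 439 TPM of Il2ra, the range in which the 3A10t libraries also lay or came near. The common chain Il2rg did not pass the test (0.14, adjusted p = 0.38, 95% interval −0.10 to 0.39). Il7r, which pairs with Il2rg to bind IL-7, moved the other way, at 157, 98.6 and 109.8 TPM in 3A10t and 64.1, 60.3 and 59.1 TPM in EV+IL-2 (log2 fold change 0.95, SE 0.16, adjusted p = 0.0023). Il4ra, the IL-4 receptor chain, was lower too (−0.77, adjusted p = 0.013). The kinases split, with Jak1 at 0.40 and Jak3 at −0.50. Of the pair of STAT5 genes, Stat5b was called higher (0.43, adjusted p = 0.014) and Stat5a was not (0.37, adjusted p = 0.062). Several of these calls were unsteady. Thus the call of Jak1 held in 10 of 19 alternative settings (adjusted p up to 0.17) and was lost without 3A10t replicates 2 or 3, EV+IL-2 replicates 1, 2 or 3 or 1G12t replicate 3. Likewise, the call of Jak3 held in 14 of 19 alternative settings (adjusted p up to 0.089) and was lost without 3A10t replicates 2 or 3 or EV+IL-2 replicate 2. In addition, the call of Stat5b held in 15 of 19 alternative settings (adjusted p up to 0.096) and was lost without 3A10t replicate 3 or EV+IL-2 replicate 1. Last, the call of Il4ra held in 17 of 19 alternative settings (adjusted p up to 0.087) and was lost without 3A10t replicate 3. For the list this gave 1 higher without EV+IL-2 replicate 1 and 2 lower without 3A10t replicate 3, and 1 higher and 1 lower when only the 6 libraries were fitted.

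**Figure D2:**
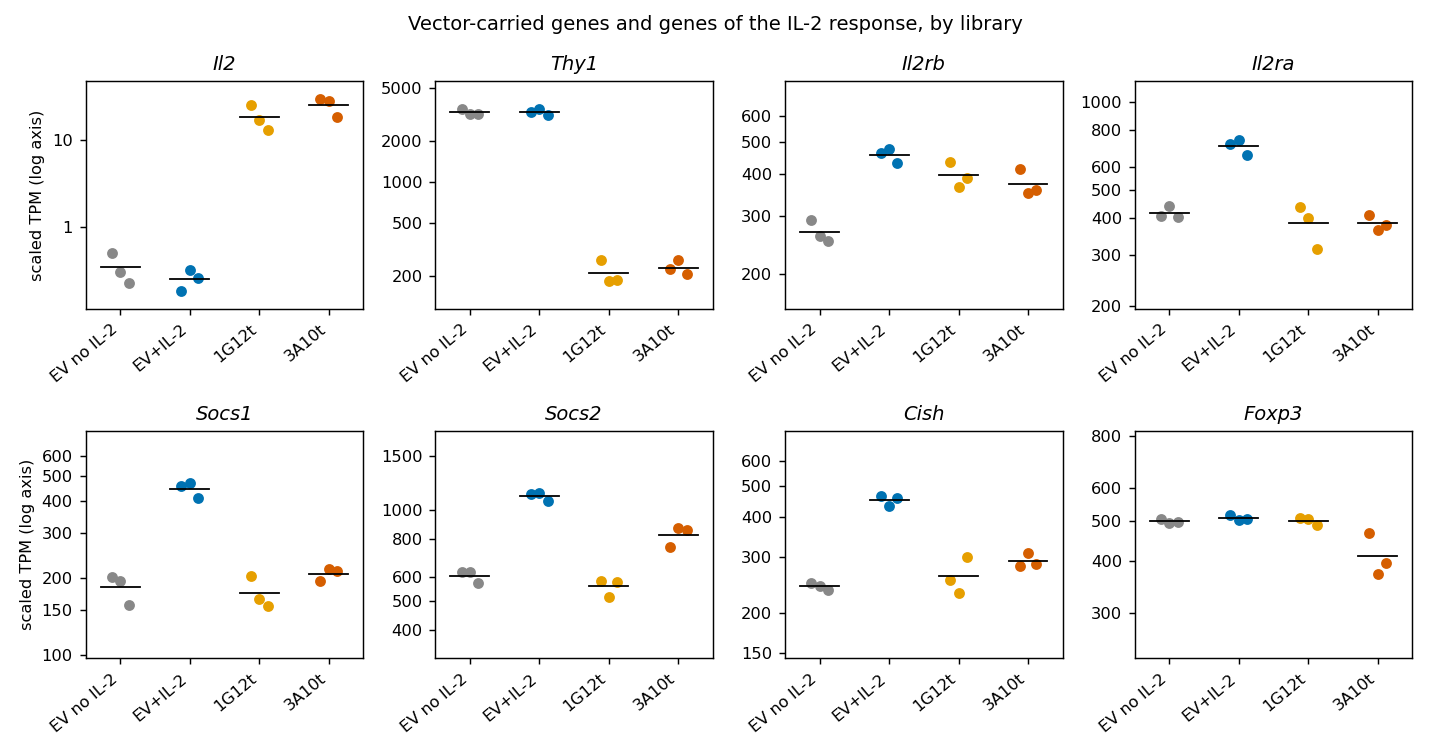
Scaled TPM on a log axis for 8 genes in the 12 libraries, by group on the horizontal axis, with a point per library and a black line at the mean of 3. Il2 separates the tethered from the EV groups, Thy1 is low in both tethered groups, and Il2ra, Socs1, Socs2 and Cish are higher in the 3 EV+IL-2 libraries than in the 3 3A10t libraries.

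Targets and feedback inhibitors of IL-2 signaling were lower in 3A10t or did not pass the test, with a median of −0.43. In the limma fit 14 of 30 were lower (46.7% against 13.0% of all genes) and 0 higher. At an unadjusted p under 0.05 (limma), 18 were lower and 1 higher. Over the 19 alternative settings 11 to 17 were lower, and in 6 of them 1 member, Il10, was called higher. The list's median log2 level was 6.86, 6.55 and 7.11 in 3A10t, 7.37 to 7.58 in EV+IL-2 and 6.70 to 6.86 in EV no IL-2. Replicate 2 of 3A10t thus lay below every EV no IL-2 library. Socs1 was at 194, 217 and 211 TPM in 3A10t and 458, 469 and 409.5 TPM in EV+IL-2 (log2 fold change −1.10, SE 0.12, adjusted p = 0.00019). Cish was at 280.4, 309 and 285 TPM in 3A10t and 465, 434 and 458 TPM in EV+IL-2 (log2 fold change −0.63, SE 0.09, adjusted p = 0.00093). Socs2 was at 756, 868 and 856 TPM in 3A10t and 1127, 1139 and 1069 TPM in EV+IL-2 (log2 fold change −0.43, SE 0.08, adjusted p = 0.0032). These are inhibitors that cytokine signaling itself induces, and in none of them did the groups overlap. Socs1 in 3A10t lay close to the 156 to 201 TPM of EV no IL-2, whereas Socs2 in 3A10t lay above the 574 to 625 TPM of EV no IL-2. Socs3 had the same sign (−0.82, adjusted p = 0.022), though the call of Socs3 held in 15 of 19 alternative settings (adjusted p up to 0.077) and was lost without 3A10t replicates 2 or 3 or EV+IL-2 replicates 1 or 2.

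Secreted products had some of the largest differences of the list. Gzmb, the cytotoxic protease granzyme B, was at 57.0, 74.2 and 68.3 TPM in 3A10t and 514, 558 and 493 TPM in EV+IL-2 (log2 fold change −2.96, SE 0.67, adjusted p = 0.011), a level 7.84 times as high with soluble IL-2. Lta, the cytokine lymphotoxin α, was at 153, 222 and 187 TPM in 3A10t and 522, 557 and 501 TPM in EV+IL-2 (log2 fold change −1.50, SE 0.12, adjusted p = 2.9e-05). The IL-6 family cytokines Osm and Lif followed. Osm was at 73.5, 62.7 and 70.3 TPM in 3A10t and 198, 185 and 168 TPM in EV+IL-2 (log2 fold change −1.40, SE 0.12, adjusted p = 4.3e-05). Lif was at 1.91, 1.04 and 0.965 TPM in 3A10t and 10.7, 9.97 and 9.80 TPM in EV+IL-2 (log2 fold change −2.30, SE 0.20, adjusted p = 4e-05). All 6 libraries separated by group for each of these genes. The growth regulators Myc (−0.72, adjusted p = 0.0065) and Ccnd3, a D-type cyclin (−0.55, adjusted p = 0.011), and the secretory-stress factor Xbp1 (−0.69, adjusted p = 0.00028) were also lower. Bcl2, a survival gene, was at 166, 171 and 188 TPM in 3A10t and 200.5, 213 and 277 TPM in EV+IL-2 and did not pass the test (log2 fold change −0.38, SE 0.15, adjusted p = 0.094), although its libraries did not overlap. With the replicate block Bcl2 was called lower, as it was without 1G12t replicate 3.

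The promoter of Cish is shown because the list is defined by STAT5, which binds the paired sequence TTCNNNGAA. From 170 bases before to 30 after the RefSeq start on GRCm38.p6 (chr9:107296489-107296688, plus strand, 5′ to 3′, with matches to TTCNNNGAA in capitals) it reads as follows.
Cish: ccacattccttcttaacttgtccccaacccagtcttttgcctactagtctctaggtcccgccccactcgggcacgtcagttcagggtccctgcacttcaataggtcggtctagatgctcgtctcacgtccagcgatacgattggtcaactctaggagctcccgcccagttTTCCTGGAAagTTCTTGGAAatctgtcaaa
Its matches begin 1 and 12 bases after the start. Searched on both strands from 250 bases before to 50 after the start, 5 of 24 (20.8%) of the list's genes with a RefSeq promoter held the motif, against 780 of 9334 (8.36%) over all genes tested. Lta had 2 matches, Socs3 1, and Socs1 and Il2ra had 0 in this window. A match describes the letters and not binding.

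Genes of Treg identity moved in both directions, 2 higher and 6 lower of 22 (9.09% and 27.3%, against 10.3% and 13.0% of all genes), with a median of −0.11. Foxp3, the lineage factor, was at 468, 373 and 395 TPM in 3A10t and 515, 501 and 506 TPM in EV+IL-2 (log2 fold change −0.31, SE 0.08, adjusted p = 0.019). Its difference was small, and the call of Foxp3 held in 14 of 19 alternative settings (adjusted p up to 0.10) and was lost without 3A10t replicate 3 or EV+IL-2 replicates 1 or 3. Lrrc32 (GARP), which anchors latent TGF-β on the Treg surface, was at 89.7, 60.1 and 55.6 TPM in 3A10t and 178, 186 and 164 TPM in EV+IL-2 (log2 fold change −1.38, SE 0.16, adjusted p = 0.00022). Itgae (CD103), an integrin that binds E-cadherin, was also lower, at 24.4, 11.2 and 12.2 TPM in 3A10t and 31.5, 35.2 and 31.2 TPM in EV+IL-2 (log2 fold change −1.07, SE 0.22, adjusted p = 0.0064). The inhibitory receptor Tigit was higher, at 34.3, 42.4 and 45.0 TPM in 3A10t and 20.3, 17.0 and 15.4 TPM in EV+IL-2 (log2 fold change 1.16, SE 0.13, adjusted p = 0.00017). Izumo1r, also called folate receptor 4, was higher at 232, 359.8 and 285 TPM in 3A10t and 162, 172 and 158 TPM in EV+IL-2 (log2 fold change 0.81, SE 0.15, adjusted p = 0.0038). Ctla4, the checkpoint receptor through which Tregs strip ligands from other cells, did not pass the test (0.10, adjusted p = 0.55, 95% interval −0.15 to 0.35), nor did the transcription factor gene Ikzf2 (−0.29, adjusted p = 0.42, 95% interval −0.83 to 0.25). Over the alternatives 3 to 8 of the list were lower, 3 of them when only the 6 libraries were fitted.

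Suppressive mediators also split, with 4 higher and 5 lower of 17 (23.5% and 29.4%, against 10.3% and 13.0% of all genes; median 0.10). Lag3, an inhibitory receptor that binds MHC class II, was at 18.7, 21.7 and 20.1 TPM in 3A10t and 5.15, 4.18 and 2.88 TPM in EV+IL-2 (log2 fold change 2.09, SE 0.30, adjusted p = 0.0010). Pdcd1 (PD-1) was at 69.5, 67.9 and 70.2 TPM in 3A10t and 32.3, 28.4 and 25.9 TPM in EV+IL-2 (log2 fold change 1.24, SE 0.09, adjusted p = 1.5e-05). Both were above their EV no IL-2 ranges of 12.01 to 15.4 TPM and 53.9 to 59.0 TPM, and neither overlapped with EV+IL-2. The chemokine receptor Ccr8, common on activated Tregs, was higher too (0.55, adjusted p = 0.011). Among the lower members, beside Gzmb, Gzmc was at 11.1, 20.3 and 13.4 TPM in 3A10t and 40.8, 37.2 and 32.7 TPM in EV+IL-2 (log2 fold change −1.29, SE 0.18, adjusted p = 0.00079). Fgl2, a secreted fibrinogen-like protein, was at 11.7, 8.09 and 9.21 TPM in 3A10t and 25.3, 25.8 and 21.6 TPM in EV+IL-2 (log2 fold change −1.25, SE 0.14, adjusted p = 0.00018). Lgals1 (galectin-1) was lower as well (−0.67, adjusted p = 0.0029), and so was Il1rl1, the IL-33 receptor (−0.95, adjusted p = 0.022). However, the call of Il1rl1 held in 13 of 19 alternative settings (adjusted p up to 0.078) and was lost without 3A10t replicates 1 or 2 or EV+IL-2 replicates 1, 2 or 3. Il10 was at 12.4, 17.3 and 15.5 TPM in 3A10t and 3.22, 4.78 and 4.72 TPM in EV+IL-2, 3.55 times as high in 3A10t with no overlap, but did not pass the test (log2 fold change 1.62, SE 0.54, adjusted p = 0.052). Il10 was called higher in 6 of 19 alternative settings: with a pseudocount of 5, no filter on low TPM, a mean TPM of at least 5, only the 6 libraries, only protein-coding genes or without 1G12t replicate 3. Over the 19, its adjusted p ranged from 0.00021 to 0.15. Ebi3 (0.17, adjusted p = 0.30), Prf1 (0.17, adjusted p = 0.48), Tgfb1 (−0.40, adjusted p = 0.13), Nt5e (−0.66, adjusted p = 0.063) and Entpd1 (−0.30, adjusted p = 0.11) did not pass either. Without 3A10t replicate 1, Nt5e and Entpd1 were called lower, with log2 fold changes of −1.005 and −0.43.

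Mitosis genes had the largest share of lower genes of any list with 10 or more tested members. Of these, 46 of 49 were lower in 3A10t (93.9% against 13.0% of all genes), with a median of −1.77. Over the alternatives 34 to 46 were lower, the 34 among the 37 tested at a mean TPM of at least 5. Ccna2, the cyclin of S phase and mitotic entry, was at 4.52, 4.43 and 3.39 TPM in 3A10t and 38.3, 33.7 and 29.8 TPM in EV+IL-2 (log2 fold change −2.77, SE 0.20, adjusted p = 1.3e-05). Birc5 (survivin), a subunit of the chromosomal passenger complex, was at 7.90, 18.3 and 11.6 TPM in 3A10t and 92.8, 83.4 and 70.0 TPM in EV+IL-2 (log2 fold change −2.67, SE 0.30, adjusted p = 0.00020). Ube2c, an enzyme of the anaphase-promoting complex pathway, was at 6.85, 10.6 and 6.43 TPM in 3A10t and 67.8, 55.2 and 44.3 TPM in EV+IL-2 (log2 fold change −2.67, SE 0.27, adjusted p = 9.8e-05). Each was 6.50 to 8.25 times as high with soluble IL-2. The spindle proteins Nusap1 (−2.65, adjusted p = 2.9e-05) and Tpx2 (−2.63, adjusted p = 2e-05), the topoisomerase Top2a (−2.33, adjusted p = 7.4e-07), the proliferation marker Mki67 (−2.13, adjusted p = 2.9e-05) and the kinase Cdk1 (−2.27, adjusted p = 0.00051) went the same way. The exception was Smc4, a condensin subunit, which was higher at 775, 896 and 886 TPM in 3A10t and 487, 481 and 488 TPM in EV+IL-2 (log2 fold change 0.81, SE 0.07, adjusted p = 5.5e-05). The 2 members that did not pass the test were Bub3 and Tubb4b. The median log2 level of the list was 2.88 to 3.01 in the 3A10t libraries, 4.94 to 5.19 in EV+IL-2, 2.27 to 2.53 in EV no IL-2 and 2.16 to 2.62 in 1G12t. The 3A10t libraries thus lay above EV no IL-2 and 1G12t and below EV+IL-2.

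DNA replication genes were lower in 36 of 44 cases (81.8% against 13.0% of all genes) and higher in 0 (against 10.3%). At an unadjusted p under 0.05 (limma) the counts were 37 and 0. Their median was −0.81. Over the alternatives 25 to 38 were lower, the 25 among the 33 tested at a mean TPM of at least 5. Cdc6, which loads the replicative helicase, was at 2.23, 1.90 and 1.74 TPM in 3A10t and 17.3, 15.5 and 14.4 TPM in EV+IL-2 (log2 fold change −2.50, SE 0.15, adjusted p = 6.2e-06). Rrm2, the regulated subunit of the enzyme that makes deoxynucleotides, was at 17.3, 14.6 and 19.7 TPM in 3A10t and 111, 108 and 82.1 TPM in EV+IL-2 (log2 fold change −2.48, SE 0.18, adjusted p = 1.3e-05). Tk1 was at 10.4, 14.7 and 11.9 TPM in 3A10t and 47.9, 46.4 and 37.3 TPM in EV+IL-2 (log2 fold change −1.76, SE 0.16, adjusted p = 5.2e-05). Uhrf1, which helps copy DNA methylation, was lower too (−1.56, adjusted p = 6.2e-05). The helicase subunits themselves changed less, from −1.43 for Mcm5 to −0.46 for Mcm7. The median log2 level of the list was 4.24 to 4.33 in 3A10t and 5.21 to 5.35 in EV+IL-2. It was 4.03 to 4.14 in EV no IL-2 and 3.91 to 4.35 in 1G12t. Of the G1 cyclins and CDK inhibitors, 11 of 18 were lower (61.1% against 13.0% of all genes) and 0 higher (limma; 11 and 1 at an unadjusted p under 0.05; median −0.54; 7 to 11 lower over the alternatives, 1 higher without 3A10t replicate 1). Ccne2, a cyclin of S phase entry, was at 3.53, 3.17 and 2.10 TPM in 3A10t and 18.3, 18.5 and 13.8 TPM in EV+IL-2 (log2 fold change −2.19, SE 0.15, adjusted p = 1.3e-05). The members that fell included inhibitors of the cycle as well. Cdkn1a (p21) was at 83.9, 129.98 and 103 TPM in 3A10t and 260.0, 293 and 239 TPM in EV+IL-2 (log2 fold change −1.33, SE 0.23, adjusted p = 0.0027). Cdkn2c (p18) was at 14.6, 13.9 and 13.6 TPM in 3A10t and 35.2, 31.9 and 27.6 TPM in EV+IL-2 (log2 fold change −1.11, SE 0.12, adjusted p = 0.00017).

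A promoter of each kind is shown because cell cycle genes share short elements, CHR (TTTGAA) in mitosis genes and the E2F site (TTTCCCGC) in replication genes. Both read from 170 bases before to 30 after the RefSeq start on GRCm38.p6, 5′ to 3′ on the gene's strand, with the element or its reverse complement in capitals. Ccnb2 (cyclin B2), on the minus strand at chr9:70421525-70421724, was at 6.83, 8.93 and 7.67 TPM in 3A10t and 56.8, 50.6 and 36.0 TPM in EV+IL-2 (−2.45, adjusted p = 4.3e-05). Cdc6 lies on the plus strand at chr11:98907981-98908180.
Ccnb2: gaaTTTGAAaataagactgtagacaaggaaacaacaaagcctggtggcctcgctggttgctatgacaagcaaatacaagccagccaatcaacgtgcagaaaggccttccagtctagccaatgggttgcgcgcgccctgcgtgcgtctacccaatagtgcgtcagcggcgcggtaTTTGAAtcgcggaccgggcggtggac
Cdc6: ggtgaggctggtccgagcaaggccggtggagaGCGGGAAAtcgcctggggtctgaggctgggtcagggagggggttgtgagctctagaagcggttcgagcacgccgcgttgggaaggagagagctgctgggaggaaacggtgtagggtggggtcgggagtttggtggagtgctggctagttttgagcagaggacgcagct
In Ccnb2 one CHR begins 5 bases after the start and the other 167 bases before it, and in Cdc6 the E2F element lies 138 bases before it. On both strands of the 300-base window, CHR was found in 29 of 41 (70.7%) of the mitosis genes with a promoter and in 14.5% of all genes tested. The E2F element was found in 6 of 37 (16.2%) of the replication genes and in 2.41% of all. The elements do not overlap each other.

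Interferon-response genes were lower in 3A10t in 34 of 52 cases and higher in 2 (65.4% and 3.85%, against 13.0% and 10.3% of all genes). Their median was −0.69, and 23 to 35 were lower over the alternatives. The genes with the largest differences encode Ifitm proteins, small membrane proteins that block virus entry, which lie together on chromosome 7 (GRCm38). Ifitm1 (chr7:140967221-140969825) was at 3.03, 2.57 and 2.77 TPM in 3A10t and 72.6, 53.8 and 67.8 TPM in EV+IL-2 (log2 fold change −4.11, SE 0.33, adjusted p = 2.9e-05), 23.2 times as high with soluble IL-2. Ifitm2 (chr7:140954837-140955987) was at 127, 200.04 and 153 TPM in 3A10t and 1055, 1095 and 1035 TPM in EV+IL-2 (log2 fold change −2.75, SE 0.33, adjusted p = 0.00034). Ifitm3 (chr7:141009586-141010770) was at 22.6, 40.7 and 33.1 TPM in 3A10t and 237, 210.0 and 203 TPM in EV+IL-2 (log2 fold change −2.75, SE 0.23, adjusted p = 3.5e-05). These genes resemble each other in sequence, so their reads can be divided only by the authors' estimate. In EV no IL-2 they were at 1.06 to 1.496 TPM, 95.7 to 118 TPM and 15.3 to 20.3 TPM, below the 3A10t libraries.

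Other members of the list that were lower included Gbp4 and Gbp6. Gbp4, a guanylate-binding protein, was at 39.5, 34.5 and 32.7 TPM in 3A10t and 141, 149.9 and 125 TPM in EV+IL-2 (log2 fold change −1.94, SE 0.11, adjusted p = 4.4e-06). Gbp6, a close relative, was at 19.3, 13.5 and 13.9 against 70.7, 66.0 and 47.8 TPM (−1.91, adjusted p = 8.6e-05). Both subunits of the peptide transporter of MHC class I loading fell, Tap2 at 170.1, 158 and 178 TPM in 3A10t and 373, 406 and 345 TPM in EV+IL-2 (log2 fold change −1.14, SE 0.08, adjusted p = 1.3e-05) and Tap1 by more than its spread (−0.96, adjusted p = 0.00028). The immunoproteasome subunit Psmb9 fell too (−0.79, adjusted p = 0.00028). Ifit1 was at 1.24, 1.09 and 1.21 TPM in 3A10t and 12.2, 2.26 and 2.28 TPM in EV+IL-2 and did not pass the test (−1.26, adjusted p = 0.094), and Mx1 and Rsad2 were below the filter. Irf8, a transcription factor, was higher with the tether, at 13.6, 17.2 and 17.3 TPM in 3A10t and 5.88, 6.90 and 5.96 TPM in EV+IL-2 (log2 fold change 1.23, SE 0.11, adjusted p = 5.5e-05). Oasl1 was higher as well (1.31, adjusted p = 0.030), but the call of Oasl1 held in 12 of 18 alternative settings (adjusted p up to 0.10) and was lost without 3A10t replicates 2 or 3 or EV+IL-2 replicates 1 or 2. The list had 1 higher without 3A10t replicates 2 or 3 or EV+IL-2 replicates 1 or 2. Its median log2 level was 4.85 to 5.05 in 3A10t, 5.93 to 6.15 in EV+IL-2 and 5.02 to 5.22 in EV no IL-2.

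The start of Ifitm3 is shown because it holds both kinds of element the list is known for, the interferon-stimulated response element (ISRE, searched as TTTC, 2 bases of any kind and TTTC again) and TTCNNNGAA. It reads from 170 bases before to 30 after the RefSeq start on GRCm38.p6 (chr7:141010715-141010914, minus strand, 5′ to 3′), with matches to either motif on either strand in capitals.
Ifitm3: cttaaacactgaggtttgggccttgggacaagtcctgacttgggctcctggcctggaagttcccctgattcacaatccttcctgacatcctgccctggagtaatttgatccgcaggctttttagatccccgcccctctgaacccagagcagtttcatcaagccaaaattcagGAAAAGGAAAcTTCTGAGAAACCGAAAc
The ISRE matches begin 3 and 20 bases after the start and the STAT match 14 bases after it, so the latter overlaps the second ISRE match. ISRE letters were found in 19 of 37 (51.4%) of the list's genes with a promoter and in 3.73% of all genes tested. STAT letters were found in 15 of 37 (40.5%) of the list. Socs1, named above, held 2 ISRE matches and no STAT match, and Ifitm1 held neither.

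Few genes of translation and respiration passed the test. Of 82 cytoplasmic ribosomal proteins 4 were lower and 0 higher (4.88% against 13.0% of all genes; 9 and 1 at an unadjusted p under 0.05, limma), with a median of −0.11. The lower members were Rps27l (−0.49, adjusted p = 0.013), Rps12 (−0.39), Rpl7a (−0.32) and Rpl27 (−0.30). This count depended on scaling, with 26 lower on TPM as deposited and 15 after quantile normalization, and on libraries, with 1 lower without 3A10t replicate 3 or EV+IL-2 replicate 3 and 2 lower without EV+IL-2 replicate 1 and with the replicate block. Of 35 ribosome biogenesis genes 5 were lower and 0 higher (14.3% against 13.0% of all genes, a share near that background; 11 and 0 at an unadjusted p under 0.05, limma), among them Myc, Ddx21, an RNA helicase of the nucleolus (−0.73, adjusted p = 0.0082), and Mybbp1a (−0.68, adjusted p = 0.018). That list had 3 lower without EV+IL-2 replicates 1 or 2, 8 lower without 1G12t replicate 3 and 9 lower without 3A10t replicate 1.

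Of 78 nuclear genes of the respiratory chain, 1 was higher and 1 lower (1.28% each, against 10.3% and 13.0% of all genes). Their median was 0.04 and ranged from −0.10 to 0.13 over the alternatives. Sdhd, a subunit of complex II, was lower at 165, 146 and 153 TPM in 3A10t and 259, 255 and 228 TPM in EV+IL-2 (log2 fold change −0.67, SE 0.09, adjusted p = 0.00072). Cox7a2l, an assembly factor, was at 299, 370.4 and 295 TPM in 3A10t and 256, 250.1 and 248.5 TPM in EV+IL-2 (log2 fold change 0.34, SE 0.11, adjusted p = 0.050). Again, the call of Cox7a2l held in 10 of 19 alternative settings (adjusted p up to 0.14) and was lost without 3A10t replicates 2 or 3 or EV+IL-2 replicates 1, 2 or 3. Single libraries moved these small counts to 0 higher without 3A10t replicates 2 or 3 or EV+IL-2 replicates 1, 2 or 3, 6 higher without 3A10t replicate 1, 2 lower without 3A10t replicate 1 and 5 lower without 3A10t replicate 2. None of the 13 protein-coding genes of the mitochondrial genome passed the test, against 23.4% of all genes (limma; 0 at an unadjusted p under 0.05). The lowest p was that of mt-Nd2 (0.23, adjusted p = 0.14, 95% interval −0.01 to 0.47).

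Of the cholesterol and fatty acid synthesis genes, 10 of 29 were lower and 2 higher (34.5% against 13.0% of all genes lower; median −0.23; 6 to 12 lower over the alternatives, 6 with only the 6 libraries fitted). Elovl6, which lengthens fatty acids, was at 23.9, 22.3 and 28.5 TPM in 3A10t and 84.2, 81.4 and 83.5 TPM in EV+IL-2 (log2 fold change −1.70, SE 0.11, adjusted p = 1e-05). Idi1, an enzyme of isoprenoid synthesis, was at 15.2, 5.57 and 9.18 TPM in 3A10t and 35.1, 29.97 and 28.5 TPM in EV+IL-2 (log2 fold change −1.64, SE 0.26, adjusted p = 0.0018). Fatty acid synthase Fasn (−0.88, adjusted p = 8.1e-05) and the desaturase Scd2 (−1.03, adjusted p = 0.00053) were lower too. The members called higher were Acss2 (0.56, adjusted p = 0.013) and Pmvk (0.44, adjusted p = 0.040), and the list had 1 higher without 3A10t replicates 2 or 3, EV+IL-2 replicates 1, 2 or 3 or 1G12t replicate 3. Outside the lists, pyruvate carboxylase Pcx (chr19:4510472-4621752), which feeds the citric acid cycle, had one of the smallest adjusted p of the comparison, at 11.1, 10.0 and 9.34 TPM in 3A10t and 75.5, 85.7 and 75.7 TPM in EV+IL-2 (log2 fold change −2.84, SE 0.13, adjusted p = 8.7e-07). Of 22 genes in the glycolysis list, which holds more than its enzymes, 2 were higher (Aldoc, 0.71, and Pfkfb3, 0.54). Lower were 3, the lactate carrier Slc16a1 (−1.004), Hk1 (−0.69) and the mitochondrial protein Bnip3 (−0.61). These shares were near those over all genes (9.09% and 13.6%, against 10.3% and 13.0% of all genes). Those counts became 1 higher without 3A10t replicates 2 or 3 or EV+IL-2 replicate 3 and 5 lower without 3A10t replicate 1.

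**Figure D3:**
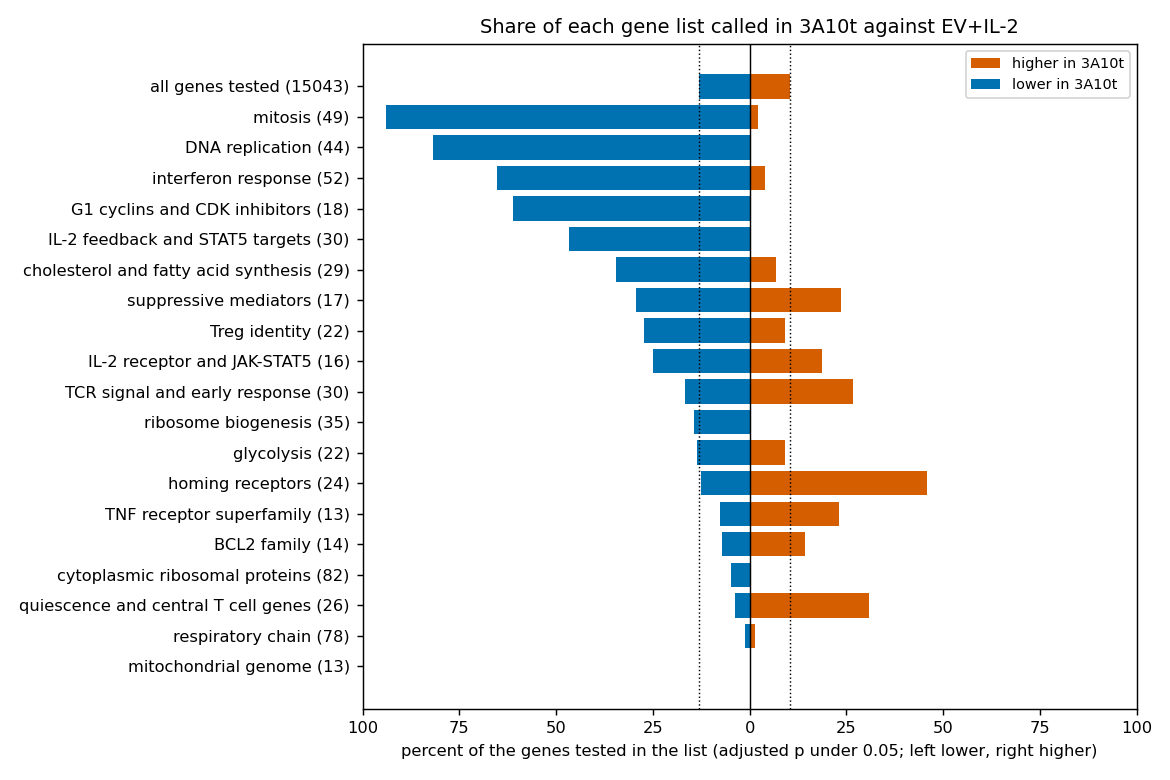
Percent of the tested genes in each list that were called higher (vermillion, right of 0) or lower (blue, left of 0) in 3A10t at an adjusted p under 0.05, with the number tested in parentheses and dotted lines at the shares over all 15043 genes (10.3% higher, 13.0% lower). Among these lists, each with 10 or more tested genes, mitosis and DNA replication have the longest blue bars, at 46 of 49 and 36 of 44 genes, and homing receptors the longest vermillion bar, at 11 of 24.

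Of the genes of quiescent and central T cells, 8 of 26 were higher and 1 was lower (30.8% and 3.85%, against 10.3% and 13.0% of all genes; median 0.24; 5 to 11 higher over the alternatives, 5 higher without EV+IL-2 replicate 2 and 2 lower without 3A10t replicates 1 or 2). Rflnb (refilin B), which organizes actin with filamin, had the smallest adjusted p among them, at 18.3, 20.2 and 16.8 TPM in 3A10t and 3.18, 3.57 and 3.14 TPM in EV+IL-2 (log2 fold change 2.17, SE 0.11, adjusted p = 1.6e-06). In EV no IL-2 it lay at 24.3 to 25.3 TPM. Ccr7, the receptor for lymph node entry, was at 465, 481 and 479.7 TPM in 3A10t and 253, 272 and 251 TPM in EV+IL-2 (log2 fold change 0.88, SE 0.11, adjusted p = 0.00033). Tcf7 (TCF-1), a factor of memory and stem-like T cells, was at 108, 63.9 and 102 TPM in 3A10t and 54.1, 34.8 and 55.6 TPM in EV+IL-2 (log2 fold change 0.90, SE 0.23, adjusted p = 0.017). Here the call of Tcf7 held in 16 of 19 alternative settings (adjusted p up to 0.10) and was lost without 3A10t replicate 3 or EV+IL-2 replicate 2. The lower member was Tob1, an inhibitor of proliferation (−1.03, adjusted p = 0.012). The list's median log2 level was 7.67, 7.41 and 7.74 in 3A10t and 7.43 to 7.51 in EV+IL-2. Replicate 2 of 3A10t thus lay below every EV+IL-2 library. In EV no IL-2 the level was 7.88 to 7.92.

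In the BCL2 family 2 of 14 genes were higher and 1 lower (14.3% and 7.14%, against 10.3% and 13.0% of all genes; median −0.08). Bcl2a1d was higher at 8.29, 12.6 and 11.7 TPM in 3A10t and 2.84, 2.93 and 2.41 TPM in EV+IL-2 (log2 fold change 1.65, SE 0.15, adjusted p = 6.9e-05). Bcl2a1b was higher at 49.9, 79.4 and 62.0 TPM in 3A10t and 21.4, 23.1 and 22.1 TPM in EV+IL-2 (log2 fold change 1.46, SE 0.16, adjusted p = 0.00016). Both are near-identical anti-apoptotic paralogs whose reads cannot be assigned with certainty. The lower gene, the pore-former Bak1 (−0.57, adjusted p = 0.038), was low in both groups, and the count was 0 lower without 3A10t replicate 3 or EV+IL-2 replicates 1, 2 or 3, 2 lower without 3A10t replicates 1 or 2 and with the replicate block and 4 lower without 1G12t replicate 3. Bax (−0.44, adjusted p = 0.051), Mcl1 (−0.58, adjusted p = 0.40) and Bcl2l1 (−0.19, adjusted p = 0.055) did not pass the test, although Bax was called lower in 10 and Bcl2l1 in 8 of 19 alternative settings. Of 13 TNF receptor genes 3 were higher and 1 lower (23.1% and 7.69%, against 10.3% and 13.0% of all genes), with 0 lower without 3A10t replicate 3 or EV+IL-2 replicates 2 or 3 and 2 lower without 3A10t replicates 1 or 2 or 1G12t replicate 3. Cd27, a co-stimulatory receptor, was at 459.5, 639 and 548 TPM in 3A10t and 292, 300.3 and 306 TPM in EV+IL-2 (log2 fold change 0.86, SE 0.10, adjusted p = 0.00029). Tnfrsf14 (HVEM) was at 56.5, 72.6 and 69.7 TPM in 3A10t and 39.4, 41.2 and 34.7 TPM in EV+IL-2 (log2 fold change 0.77, SE 0.15, adjusted p = 0.0048). Tnfrsf25 was higher by less (0.29, adjusted p = 0.035). The Treg marker Tnfrsf18 (GITR, −0.27, adjusted p = 0.15) and the IL-2-induced Tnfrsf9 (4-1BB, −0.43, adjusted p = 0.071) did not pass the test. Tnfrsf18 was called lower without 3A10t replicate 2, on TPM as deposited and after quantile normalization, and Tnfrsf9 without 1G12t replicate 3 and with only protein-coding genes.

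Of the genes of T cell receptor signaling and its early response, 8 of 30 were higher and 5 lower, with a median of 0.07. The shares were 26.7% and 16.7%, against 10.3% and 13.0% of all genes. Over the alternatives 4 to 10 were higher and 3 to 7 lower, with 4 higher when only the 6 libraries were fitted. The list had 5 higher without 3A10t replicate 3 or EV+IL-2 replicate 3. It had 3 lower without 3A10t replicate 2 or EV+IL-2 replicates 1 or 2. Egr2, a transcription factor of activation and tolerance, was at 8.68, 6.52 and 5.96 TPM in 3A10t and 1.04, 1.23 and 0.745 TPM in EV+IL-2 (log2 fold change 2.00, SE 0.17, adjusted p = 3.8e-05). Nr4a1 (Nur77), a common reporter of receptor signal strength, was at 19.9, 18.4 and 21.5 TPM in 3A10t and 5.38, 6.30 and 5.35 TPM in EV+IL-2 (log2 fold change 1.65, SE 0.21, adjusted p = 0.00040). Nr4a3 (1.08, adjusted p = 0.030) and the receptor genes Cd3d (0.53, adjusted p = 0.0080) and Cd28 (0.52, adjusted p = 0.0020) were also higher, whereas Egr1 did not pass the test (1.03, adjusted p = 0.054) but was called higher in 9 of 19 alternative settings. Conversely, the call of Nr4a3 held in 12 of 18 alternative settings (adjusted p up to 0.12) and was lost without 3A10t replicates 2 or 3 or EV+IL-2 replicates 1, 2 or 3. The lower members were Dusp6, Dusp1 and Dusp5, phosphatases that switch off MAP kinases, Cd69 and Ptprc. Dusp6 was at 48.1, 39.2 and 43.4 TPM in 3A10t and 125, 118 and 113 TPM in EV+IL-2 (log2 fold change −1.43, SE 0.23, adjusted p = 0.0020), followed by Dusp1 (−1.19, adjusted p = 0.017) and Dusp5 (−0.83, adjusted p = 0.011). Cd69, a surface protein of early activation (−0.76, adjusted p = 0.046), and Ptprc (CD45), the phosphatase that activates Lck (−0.66, adjusted p = 0.0038), were lower by less. In turn, the call of Cd69 held in 11 of 19 alternative settings (adjusted p up to 0.15) and was lost without 3A10t replicates 1, 2 or 3 or EV+IL-2 replicates 1, 2 or 3. In EV no IL-2, Dusp6 was at 24.1 to 26.6 TPM.

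Homing receptors held the largest share of higher genes of any list with 10 or more tested members, 11 of 24 (45.8% against 10.3%), against 3 lower (median 0.31). Over the alternatives 8 to 14 were higher. As a whole the list differed less, with a median log2 level of 5.32, 5.23 and 5.06 in 3A10t and 5.06 to 5.13 in EV+IL-2. Replicate 3 of 3A10t thus lay within the EV+IL-2 range. The level was 5.47 to 5.57 in EV no IL-2, above every 3A10t and EV+IL-2 library, and 5.33 to 5.62 in 1G12t. Ccr6, the receptor for CCL20, was at 103, 128 and 107 TPM in 3A10t and 29.2, 29.2 and 32.8 TPM in EV+IL-2 (log2 fold change 1.85, SE 0.23, adjusted p = 0.00040), above its 66.8 to 92.7 TPM in EV no IL-2. Cxcr6, found on tissue T cells, was at 15.3, 17.3 and 16.1 TPM in 3A10t and 4.33, 4.16 and 4.79 TPM in EV+IL-2 (log2 fold change 1.67, SE 0.12, adjusted p = 1.4e-05). Cxcr3, which responds to interferon-induced chemokines, was at 20.7, 31.4 and 24.3 TPM in 3A10t and 10.99, 11.1 and 10.7 TPM in EV+IL-2 (log2 fold change 1.13, SE 0.14, adjusted p = 0.00038). No library of EV+IL-2 reached the lowest 3A10t library for any of these receptors. Cxcr5, which directs cells to follicles (1.29, adjusted p = 0.0027), and the integrins Itga4 (1.03, adjusted p = 0.0034) and Itgb8 (0.99, adjusted p = 0.012), the latter an activator of TGF-β, were higher. Itgb1 was at 226, 90.4 and 106 TPM in 3A10t and 294, 299 and 269 TPM in EV+IL-2 (log2 fold change −1.14, SE 0.29, adjusted p = 0.017). Itgal, a chain of LFA-1, was at 50.7, 29.4 and 29.8 TPM in 3A10t and 56.1, 54.8 and 53.1 TPM in EV+IL-2 (log2 fold change −0.61, SE 0.18, adjusted p = 0.030). In both, 3A10t replicate 1 lay closest to EV+IL-2. The list had 1 lower without 3A10t replicates 2 or 3 or EV+IL-2 replicates 1 or 2.

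**Figure D4:**
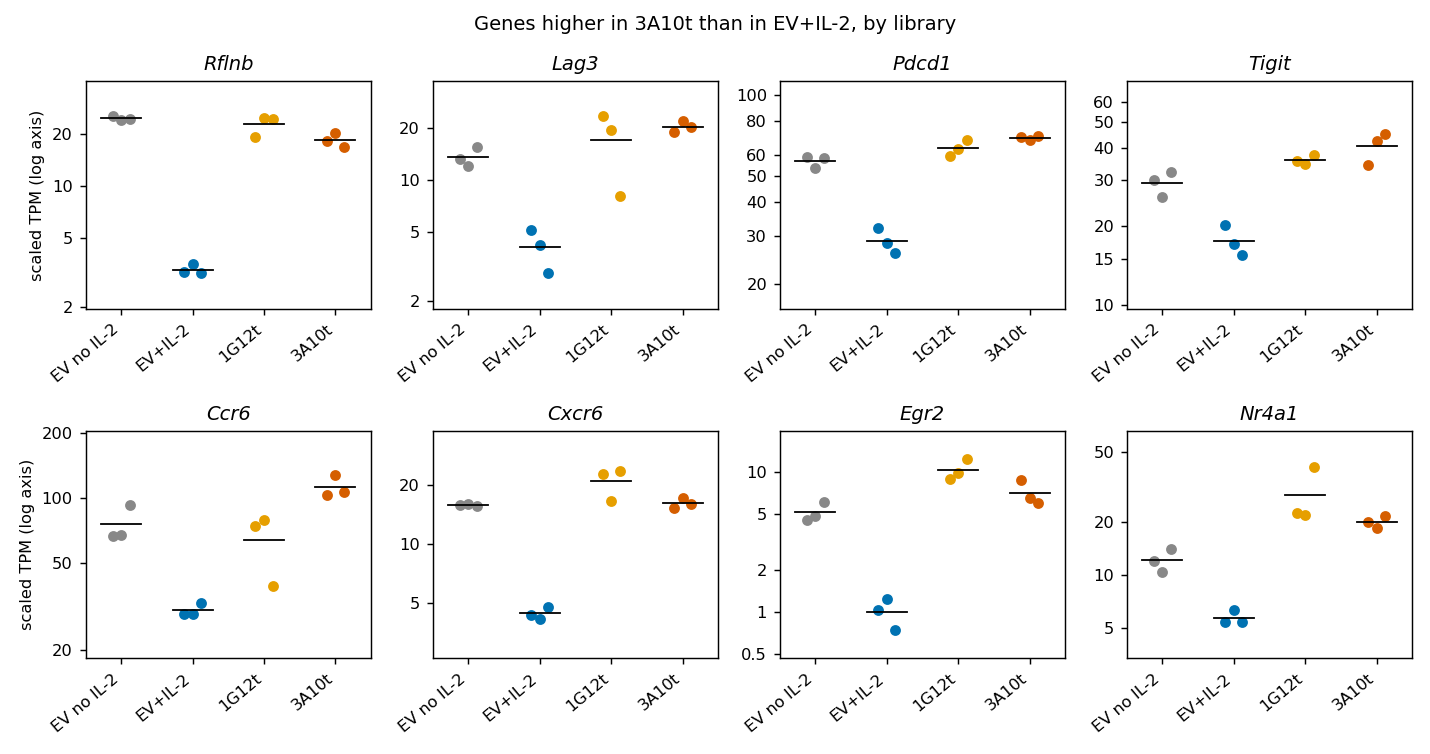
Scaled TPM on a log axis for 8 genes called higher in 3A10t than in EV+IL-2, by group on the horizontal axis, with a point per library and a black line at the mean of 3. For each gene the 3 3A10t libraries lie above the 3 EV+IL-2 libraries, for example 5.96 to 8.68 against 0.745 to 1.23 TPM for Egr2.

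Genes that no list had covered were among the largest of both directions. Higher with the tether were Rgs16 and Rgs2, regulators that end signaling of G protein-coupled receptors. Rgs16 was at 22.9, 12.8 and 20.4 TPM in 3A10t and 3.85, 3.52 and 3.12 TPM in EV+IL-2 (log2 fold change 2.09, SE 0.21, adjusted p = 0.00011). Rgs2 was at 60.3, 67.9 and 62.6 TPM in 3A10t and 18.2, 18.0 and 18.3 TPM in EV+IL-2 (log2 fold change 1.75, SE 0.21, adjusted p = 0.00036). The enzymes Dhrs3, at 21.5, 19.9 and 19.1 TPM in 3A10t and 5.36, 4.64 and 3.94 TPM in EV+IL-2 (log2 fold change 1.91, SE 0.12, adjusted p = 6.8e-06), and Adh1 (1.73, adjusted p = 0.0011) act on vitamin A alcohols and aldehydes. Penk, the precursor of enkephalin peptides, was at 20.4, 21.5 and 21.8 TPM in 3A10t and 4.12, 7.80 and 4.80 TPM in EV+IL-2 (log2 fold change 1.80, SE 0.23, adjusted p = 0.00044). Scg5 (1.67, adjusted p = 2e-05), Matk, a kinase that restrains Src family kinases (1.58, adjusted p = 1.3e-05), Lad1 (1.55, adjusted p = 2.6e-05) and Tent5c, a poly(A) polymerase (1.39, adjusted p = 1.3e-05), were higher in all 3 libraries as well. In EV no IL-2 these genes lay near 3A10t, for example 55.5 to 64.5 TPM for Rgs2 and 15.7 to 17.7 TPM for Dhrs3.

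Among the lower genes were transcripts of the T cell receptor γ locus, whose germline transcription STAT5 is known to promote in T cell precursors. Tcrg-C2 was at 3.99, 4.40 and 4.25 TPM in 3A10t and 39.5, 36.9 and 32.0 TPM in EV+IL-2 (log2 fold change −2.83, SE 0.30, adjusted p = 0.00015). Tcrg-C1, of similar sequence, was at 1.52, 2.20 and 1.10 TPM in 3A10t and 25.2, 16.4 and 15.9 TPM in EV+IL-2 (log2 fold change −2.94, SE 0.33, adjusted p = 0.00019). The variable segment Trgv2 was at 2.12, 4.78 and 3.25 TPM in 3A10t and 27.7, 30.6 and 27.3 TPM in EV+IL-2 (log2 fold change −2.80, SE 0.25, adjusted p = 5.2e-05). The δ constant gene Trdc, which γδ T cells need, was low in both groups at 2.40, 3.46 and 3.06 TPM in 3A10t and 2.97, 3.17 and 3.01 TPM in EV+IL-2 and did not pass the test (−0.04, adjusted p = 0.87, 95% interval −0.33 to 0.26). The α constant gene Trac did not pass either (0.20, adjusted p = 0.25). Globin transcripts were lower too. Hba-a1 was at 1.13, 1.01 and 2.33 TPM in 3A10t and 24.05, 16.9 and 14.3 TPM in EV+IL-2 (log2 fold change −2.97, SE 0.25, adjusted p = 4e-05). Its near-copy Hba-a2 was at 0, 0.225 and 0.304 TPM in 3A10t and 12.8, 15.7 and 8.91 TPM in EV+IL-2 (log2 fold change −3.49, SE 0.25, adjusted p = 1.3e-05), and reads cannot be divided between them with certainty. Gata1, the erythroid factor, was at 76.2, 87.2 and 90.8 TPM in 3A10t and 163, 167 and 144 TPM in EV+IL-2 (log2 fold change −0.89, SE 0.17, adjusted p = 0.0052). These were the only 3 of 8 globin and erythroid genes to pass the filter on low values.

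**Figure D5:**
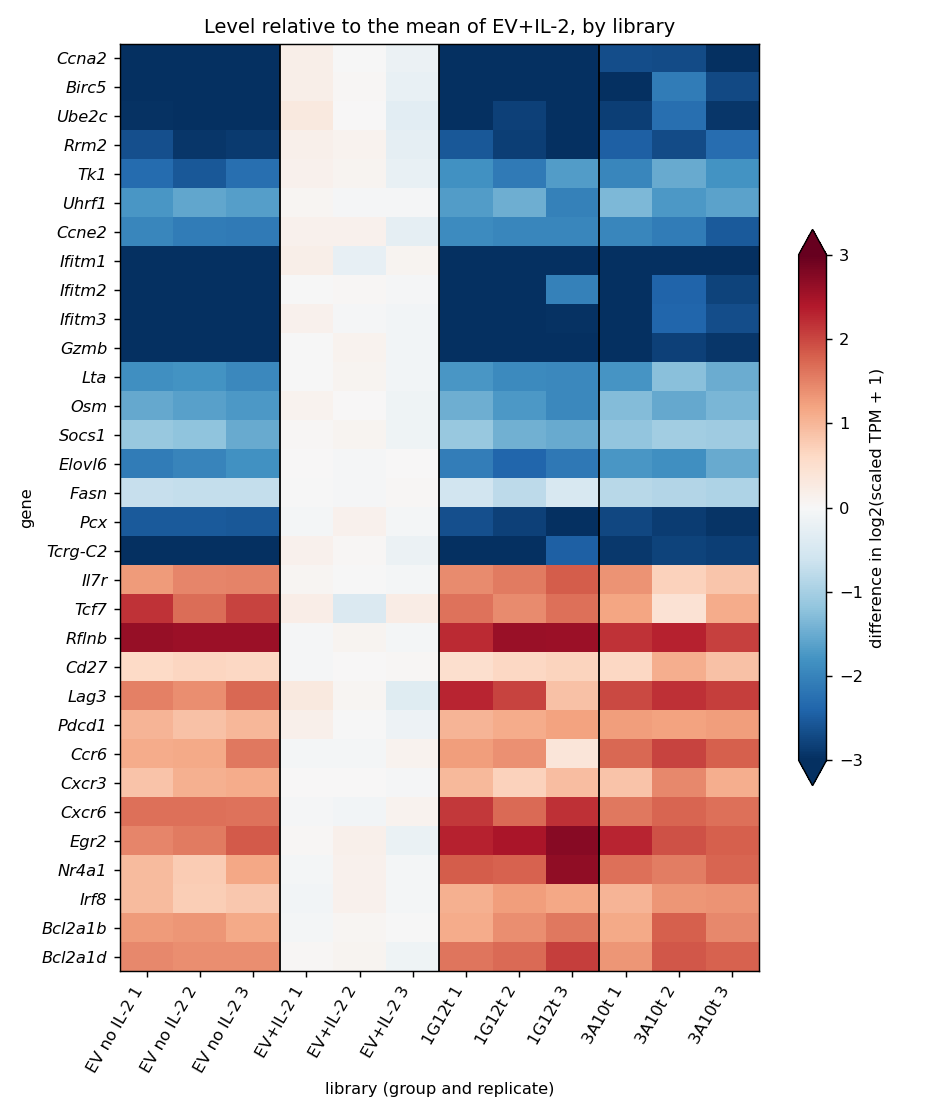
Difference in log2(scaled TPM + 1) from the mean of the 3 EV+IL-2 libraries, with genes in rows and the 12 libraries in columns by group and replicate (red above, blue below, colors capped at 3). Ccna2, Ifitm1 and Gzmb are blue in all 3 3A10t libraries, Ccr6, Egr2 and Rflnb are red in all 3, and the EV no IL-2 columns share most of these colors.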

How the data were processed

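The sample labels put 3 libraries in each of 4 groups: 3A10t, 1G12t, EV+IL-2 and EV no IL-2. By the labels and the methods of the study, full-length cDNA was amplified for 15 cycles, fragmented, amplified for 9 cycles and read as 50-base pairs. The authors trimmed reads with Cutadapt 1.18, aligned them with STAR 2.5.3 to mm10 (GRCm38), estimated expression with RSEM 1.3.0 and tested with DESeq2 1.26, per the submitters' processing notes. The values the authors deposited are TPM, normalized by transcript length and library total, and all 12 columns were used. TPM keep no read number, so depth and counting error are unknown, and the spread between libraries is the only error. Values rest on RSEM's division of reads between similar genes.

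TPM were divided by median-of-ratios factors, and genes whose mean TPM reached 1 were tested with limma 3.58.1 (R 4.3.3; lmFit, then eBayes with trend on). The input was the log2 of scaled TPM plus a pseudocount of 1, with all 12 libraries in one fit and no replicate block. Tables and figures used Python 3.11.15. The code was tested on simulated data. Gene types, lengths and positions came from GENCODE M21 (53459 symbols found), and promoters from RefSeq (9334 genes). Lists were described by their counts and medians, without a set test.

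The comparison, the gene lists and the rule for named genes were chosen with earlier results of these data known. The rule names the vector genes, the 12 protein-coding genes and the 3 of other types with the largest called, non-overlapping changes each way at a mean TPM of at least 5, up to 3 called members each way of every list, and 8 fixed genes including Foxp3 and Il2ra. Other genes named were chosen after their values were seen. Some genes under the rule are not reported here.

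The labels give the same replicate number to cultures of one sort. Deviations from the group means correlated between 3A10t and EV+IL-2 libraries of the same number at 0.073 to 0.105 (3 pairs) and of different numbers at −0.099 to 0.017 (6 pairs). The fit with the replicate block was an alternative, beside other pseudocounts, filters, scalings, a fit of only the 6 libraries, eBayes without a trend, protein-coding genes only, a length correction (lowess, span 0.3), and each library left out, 19 in all. One, without 1G12t replicate 3, was chosen after seeing the data.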

Additional observations from a re-analysis of the deposited data

How the results depend on the processing

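The main counts were 1552 higher and 1961 lower. With no filter on low TPM, 13656 of 50219 genes were called higher (10653 at the study threshold), and the median log2 fold change over all genes was 0.20. At a mean TPM of at least 5, 820 were higher (751 at the study threshold). With only the 6 libraries compared, 921 were higher and 967 lower, and 1150 were lower at the study threshold. Leaving out 1 library gave 793 to 2136 higher and 1111 to 3010 lower. With the replicate block, 1633 were higher and 2083 lower, of which 1445 and 1852 were called without it. Besides the changes given beside the results, the block ended calls of ribosomal proteins, Rps12 among them, and left 2 of these proteins lower. The share of calls that were higher was 44.2%, 35.5% on TPM as deposited and 52.0% after quantile normalization. The cause of these shifts was not tested, beyond the smaller number of genes or libraries in some. Of the genes named, only Trdc and Cd4, neither called, changed sign: Trdc to 0.14 with the transcript length correction, alone or with the replicate block, and Cd4 to 0.12 without 3A10t replicate 2. With single libraries left out, Trdc ranged from −0.12 (without 3A10t replicate 2) to 0.073 (without 3A10t replicate 1), and Cd4 from −0.29 to 0.12. Of 172 genes followed singly, 30 lost their call with only the 6 libraries, the most for any alternative. Library weights were not run. Since depth is unknown, a low TPM cannot be given a counting error.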

Other observations

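The largest positive log2 fold changes belonged to a family of predicted genes that share sequence. Gm10801 was at 8039, 22090.1 and 9237 TPM in 3A10t and 90.9, 96.5 and 301 TPM in EV+IL-2 (log2 fold change 6.40, SE 0.53, adjusted p = 3.4e-05, limma) and Gm10800 at 11679, 21229 and 17496 TPM in 3A10t and 299.6, 301 and 642 TPM in EV+IL-2 (log2 fold change 5.39, SE 0.37, adjusted p = 1.3e-05, limma). The 9 members, on chromosomes 2, 9 and 14, share 43.0% to 80.8% of their 25-base words with other members, so reads cannot be assigned among them. Together they took 2.03% to 3.79% of the deposited TPM of the 3A10t libraries, 0.0404% to 0.09996% in EV+IL-2, 0.399% to 0.567% in EV no IL-2 and 0.474% to 1.11% in 1G12t. Their part in the other results was not tested.

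The groups also differed in the kinds of genes detected. Between 39227 and 42422 genes had a TPM above 0 in the 3A10t libraries and 30393 to 36239 in EV+IL-2, and the 10 most abundant genes took 10.8% to 13.5% and 8.85% to 9.01% of TPM. Of 11033 protein-coding genes tested, 1147 were higher and 1840 lower (median −0.05), and of 3783 genes of other annotated types, 379 were higher and 106 lower (median 0.16). In the quartile of protein-coding genes with the longest transcripts, 212 were higher and 639 lower (median −0.18).

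Single small transcripts of other types stood out. The predicted miRNA gene Gm22183 was at 52.0, 33.8 and 24.7 TPM in 3A10t and was listed at 0 in the 9 other libraries. Gm27718 was at 19.7, 39.9 and 15.3 TPM in 3A10t and listed at 0 in EV+IL-2, but at 11.9, 9.81 and 0 TPM in EV no IL-2. Snord59a, a small nucleolar RNA gene, was listed at 0 in all 3A10t libraries and was at 37.5, 13.2 and 22.4 TPM in EV+IL-2. Libraries made from oligo-dT primed cDNA are not designed to measure such short RNA.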
